A study of Mus musculus with 16 samples.

Results

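Sox2, Nes, Pax6, Hes1 and Hes5 are genes by which neural progenitor cells are commonly recognised, and they were followed through 9 chromatin immunoprecipitation sequencing (ChIP-seq) libraries. Each gene was taken as an interval of the mouse genome build mm9: 10 kb on chromosome 3 from 34545000 to 34555000 for Sox2, 17 kb on chromosome 3 from 87771000 to 87788000 for Nes, 36 kb on chromosome 2 from 105505000 to 105541000 for Pax6, 9 kb on chromosome 16 from 30062000 to 30071000 for Hes1, and 9 kb on chromosome 4 from 154331000 to 154340000 for Hes5. The 5 intervals held 187 of the 1269475 different 50 bp windows that the 9 libraries listed between them. Every listed window that touched an interval was used, and no other filter was applied. A window called "at" a gene below is one in its interval, and it need not belong to that gene. All cells were neural progenitors derived from V6.5, a mouse embryonic stem cell line, by way of 4 days as embryoid bodies. That pluripotent cells, which also use Sox2, were absent was not checked, because other marker genes could not be placed in mm9 here. Cells of the knockdown arm were transfected with siRNA against Cbx3 (Cbx3 siRNA) and those of the control arm with siRNA against luciferase (control siRNA), both for 72 hours, while untreated cells had no transfection. Antibodies against RNA polymerase II (Pol II), Med26 and Cdk8 were used in both siRNA arms, Pol II also in untreated cells, and Cbx3 in untreated cells only, in libraries called set 1 and set 2. Apart from the 2 Cbx3 sets there was 1 library per group, so no difference between groups has a replicate check, no p-value is given, and "higher" and "lower" compare libraries. The level of Cbx3 after its siRNA was not analysed here.

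Sox2 and Pax6 encode transcription factors that keep neural progenitors in their state, and Nes encodes the intermediate filament protein nestin. Hes1 and Hes5 encode transcriptional repressors of the basic helix-loop-helix family that act downstream of the Notch receptor, whose cleaved form joins the DNA-binding protein RBPJ at their promoters and so holds back neuronal differentiation. Cbx3 (HP1 gamma) is a chromatin protein that binds methylated histone H3, Med26 is a subunit of the Mediator coactivator found with Pol II at promoters, and Cdk8 is the kinase of a Mediator module that can detach.

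Promoter sequences are shown for the genes with an entry in the RefSeq table of GRCm38.p6, which were 4 of the 5; Hes1 had none. They are given because the RBPJ core, the DNA element through which Notch acts, can be looked for in them. Each is the 250 bases before the annotated start, on the plus strand of GRCm38.p6, at chr3:34649745-34649994 for Sox2, chr3:87970843-87971092 for Nes, chr2:105668646-105668895 for Pax6 at its first start, chr2:105682213-105682462 for Pax6 at its second start, chr4:154960673-154960922 for Hes5. These positions belong to another build than the windows, and no position was converted, so where the starts fall among the listed windows is not known here. Capitals mark the letters TGGGAA, the core of the RBPJ motif, and CCAAT, the box bound by NF-Y, each on either strand.
Sox2: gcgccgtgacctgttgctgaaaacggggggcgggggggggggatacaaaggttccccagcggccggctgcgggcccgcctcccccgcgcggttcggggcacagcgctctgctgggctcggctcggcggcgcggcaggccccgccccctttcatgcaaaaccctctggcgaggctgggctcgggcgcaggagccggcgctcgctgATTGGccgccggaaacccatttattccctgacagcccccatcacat
Nes: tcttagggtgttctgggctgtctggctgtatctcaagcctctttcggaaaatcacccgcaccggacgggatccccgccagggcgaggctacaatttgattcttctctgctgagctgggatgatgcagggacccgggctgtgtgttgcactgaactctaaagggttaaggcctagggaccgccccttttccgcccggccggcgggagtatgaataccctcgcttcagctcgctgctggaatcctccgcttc
Pax6, first start: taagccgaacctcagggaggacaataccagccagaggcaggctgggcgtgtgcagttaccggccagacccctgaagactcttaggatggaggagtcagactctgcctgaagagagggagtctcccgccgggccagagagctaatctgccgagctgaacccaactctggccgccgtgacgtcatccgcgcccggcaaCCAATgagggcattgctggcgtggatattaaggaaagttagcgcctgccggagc
Pax6, second start: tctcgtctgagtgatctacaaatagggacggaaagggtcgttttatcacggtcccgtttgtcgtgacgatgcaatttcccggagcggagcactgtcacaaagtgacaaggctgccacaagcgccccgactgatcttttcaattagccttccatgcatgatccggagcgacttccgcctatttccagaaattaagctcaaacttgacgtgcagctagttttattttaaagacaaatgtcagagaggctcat
Hes5: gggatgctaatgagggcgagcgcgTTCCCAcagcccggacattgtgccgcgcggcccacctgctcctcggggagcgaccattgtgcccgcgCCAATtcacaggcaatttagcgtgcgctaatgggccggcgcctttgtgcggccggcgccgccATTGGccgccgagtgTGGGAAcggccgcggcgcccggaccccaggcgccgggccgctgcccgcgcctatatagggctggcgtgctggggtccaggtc
The RBPJ core was found in the Hes5 promoter alone of these 5 sequences, at 226 and 82 bases before the start counted to the first base of the match, and 21.6% of the 32851 promoters of the table held it. The CCAAT letters were in the promoters of Sox2, Hes5 and the first start of Pax6, against 33.8% of all promoters. The letters TATAAA were in none of the 5, against 12.4% of all. The N box CACNAG, to which Hes proteins bind, was in the second start of Pax6 only (36.7% of all promoters), and the E box CANNTG was there and in Hes5 (66.2%). The Sox2 and Hes5 stretches were 72% and 71.6% G and C, with 27 and 32 CG pairs, and the others 47.6 to 60.8% with 15 CG pairs each, against medians of 52.4% and 6 over the table. A match describes letters and is not a bound site.

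Pol II was listed at all 5 genes in both siRNA arms, and in untreated cells at Sox2, Hes1 and Hes5. Hes1 held 36 listed windows after Cbx3 siRNA, 64 after control siRNA and 16 in untreated cells, the most of the 5 genes in each library. The lists themselves differ in length, with 101091, 116001 and 34855 Pol II windows over the genome in these libraries, and in their lowest signal, 6.01 in both siRNA arms and 9.02 in untreated cells. Sox2 held 23, 25 and 2 in the same order, Hes5 held 11, 8 and 4, Nes held 4, 6 and 0, and Pax6 held 2, 10 and 0. Hes1 therefore carried a large part of the 76, 113 and 22 Pol II windows of the 5 genes together. Set against the genome cut into 9 kb tiles, only 12 of the 13342 tiles with any control siRNA Pol II window (0.0899%) held as many as Hes1. After Cbx3 siRNA 0.518% of such tiles held as many, and in untreated cells 2.10%. Sox2 was also well filled for its length, since 2.72% of 10 kb tiles held as many windows after Cbx3 siRNA and 3.27% after control siRNA, but 87.6% in untreated cells. Nes was not, with 69.3% and 65.1% of 17 kb tiles holding as many in the knockdown and control arms. The intervals differ in length and the listing differs between libraries, so these shares describe windows and not the amount of Pol II. The intervals were placed on genes and the tiles were not, so a tile can split the windows of a gene.

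**Figure D1:**
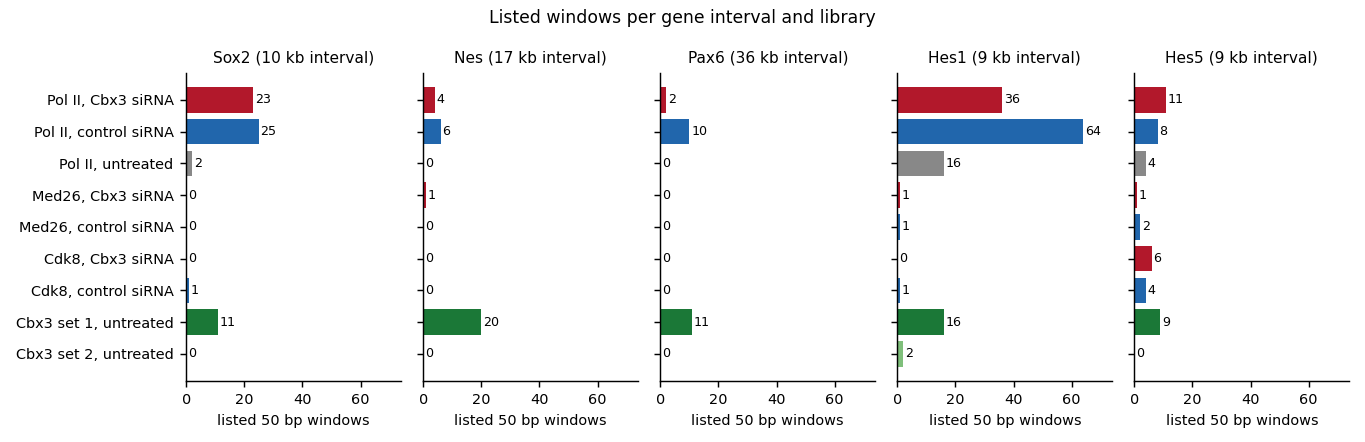
Number of listed 50 bp windows (horizontal axis) in each of the 9 libraries (rows) at the 5 gene intervals (panels). Pol II windows were most numerous at Hes1, with 36, 64 and 16, while Med26 and Cdk8 had at most 2 and 6 windows at any gene.

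The rule by which a window was listed is not given in the sources used here. The lowest Pol II signal listed was 6.01 in both siRNA arms, yet windows with an unlisted neighbour had a median signal of 10.9 after Cbx3 siRNA and 11.4 after control siRNA over the genome. At Hes1 the list after Cbx3 siRNA stopped beside a window of 22.8. What signal the unlisted windows held cannot be seen from the lists. The number of listed windows and the signal in windows listed in both arms are kept apart below.

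Over the 5 genes, 50 of the 113 control siRNA Pol II windows were also listed after Cbx3 siRNA (44.2%), against 64% of all control windows in the genome. In the other direction 50 of the 76 windows after Cbx3 siRNA were in the control list, against 73.5% genome-wide. By gene, the windows of the control arm that were listed again were 12 of 25 at Sox2, 4 of 6 at Nes, 2 of 10 at Pax6, 27 of 64 at Hes1 and 5 of 8 at Hes5. Sox2, Pax6 and Hes1 lay below the share of the genome, and Nes and Hes5 close to it. With a listed window within 200 bp taken as enough the share over the 5 genes was 79.6%, against 89.8% of all control windows.

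In the windows listed in both arms, Pol II signal was on the whole about as high after Cbx3 siRNA as after control siRNA at Sox2 and Hes1, lower at Hes5 and Pax6, and higher at Nes. The median log2 difference, Cbx3 siRNA over control siRNA, was 0.04 over 12 windows at Sox2, 0.41 over 4 at Nes, -0.63 over 2 at Pax6, 0.02 over 27 at Hes1 and -0.63 over 5 at Hes5. All 74288 Pol II windows listed in both arms had a median of -0.29, so Sox2, Nes and Hes1 lay above the genome's shift and Pax6 and Hes5 below it. Over the 5 genes the median was -0.09, which becomes 0.20 when the genome's median is subtracted. Hes1 held 27 of the 50 windows, and without it the median was -0.33, just below that of the genome. Of the 50 windows, 26 were lower after Cbx3 siRNA, against 74.2% of all windows. A difference of at least 1.5-fold was reached by 4 of the 50 in the lower direction (genome 24.2%) and by 4 in the higher (genome 2.92%). Neighbouring windows share reads, so these windows are few independent measurements. These medians say nothing of the windows listed in 1 arm only, which numbered 11 after Cbx3 siRNA and 13 after control siRNA at Sox2, 0 and 2 at Nes, and 9 and 37 at Hes1. Counting these at the lowest listed signal in the arm without them gave -0.14 at Sox2, -0.07 at Nes and -0.33 at Hes1, a direction that follows from the larger number listed after control siRNA alone.

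**Figure D2:**
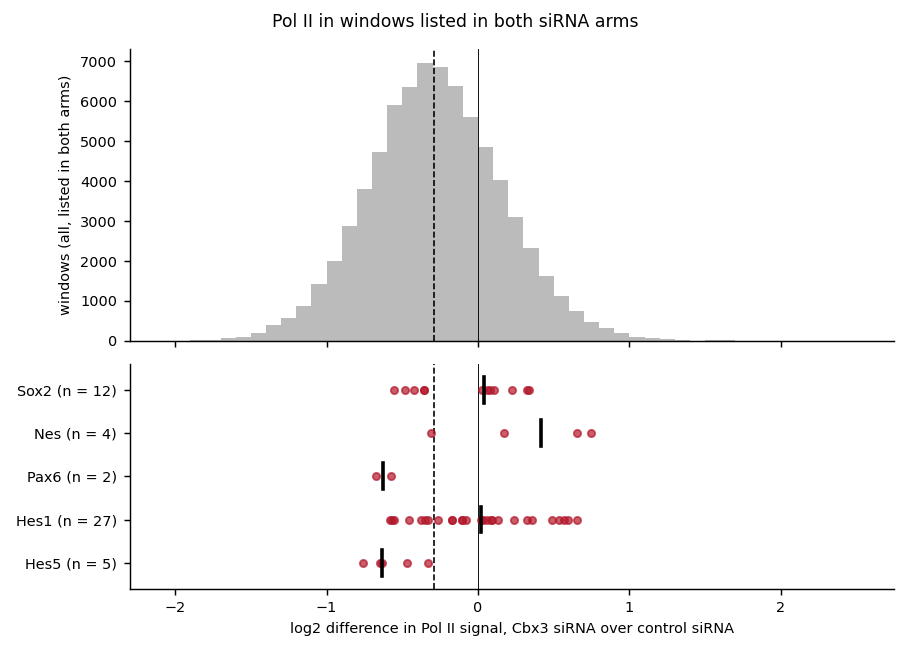
Upper panel, number of all windows listed for Pol II in both siRNA arms by their log2 difference in signal, Cbx3 siRNA over control siRNA. Lower panel, the same difference for each window of the 5 genes (points) with the gene's median (black bar); the dashed line is the genome's median of -0.29, and the windows of Hes5 and Pax6 lie to its left while the medians of Sox2, Nes and Hes1 lie to its right.

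Hes1 had Pol II in several separate stretches, a stretch being listed windows with gaps of at most 200 bp. The strongest peaked on chromosome 16 from 30065451 to 30065500 in both siRNA arms, with a signal of 31.4 after Cbx3 siRNA and 33.2 after control siRNA. In untreated cells the highest window was the next, from 30065501, with 32.1. The 3 libraries thus gave the same summit to within 1 window. Around it, 5 windows from 30065351 to 30065600 were listed after Cbx3 siRNA, with signals of 21.7, 29.0, 31.4, 26.2 and 22.8, and the same windows held 20.8, 28.4, 33.2, 33.0 and 24.5 after control siRNA. In untreated cells they held 15.2, 23.4, 31.2, 32.1 and 28.2. The control stretch, however, ran from 30065101 to 30066550 with 26 windows, and the Cbx3 siRNA list held only 6 windows there. Of control siRNA stretches of at least 10 windows, 3.84% had at most 25% as many windows after Cbx3 siRNA.

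To the left of that summit lay a broad Pol II stretch that was listed in both arms, from 30063401 to 30064550 with 23 windows after Cbx3 siRNA and from 30063301 to 30064500 with 24 after control siRNA. Stretches this long were rare, 1.39% of those after Cbx3 siRNA and 1.98% of those after control siRNA. The 22 shared windows had a median log2 difference of 0.05, but the difference changed along the stretch. Signal was lower after Cbx3 siRNA in the 9 windows from 30063601 to 30064050, with a median of -0.38, and higher in the 7 windows from 30064151 to 30064500, with a median of 0.54. The highest window was accordingly at 30064301 with 23.1 after Cbx3 siRNA and at 30063651 with 20.4 after control siRNA. Such unevenness was common: of the 220 shared stretches of at least 20 windows, 69.5% had as wide a range of differences as the 1.24 seen here. A stretch of 9 windows from 30068551 to 30069000 had signals of 6.36 to 15.8 after control siRNA. It was listed neither after Cbx3 siRNA nor in untreated cells. Of control stretches of at least 9 windows, 1.32% had no window after Cbx3 siRNA. In the other direction, stretches from 30070301 to 30070400 and from 30070751 to 30070900 were listed after Cbx3 siRNA and not after control siRNA.

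Mediator was barely listed at Hes1. Over the genome Med26 had 2721 windows after Cbx3 siRNA and 15546 after control siRNA, and over the 5 genes 3 in each arm. Med26 had 1 window after Cbx3 siRNA, from 30064101 with a signal of 8.74, and 1 after control siRNA, from 30064351 with 8.66. Cdk8 had none after Cbx3 siRNA and 1 after control siRNA, from 30064201 with 6.91, near the lowest listed Cdk8 signal of 6.01. All 3 windows lay in the broad left stretch of Pol II and none at the strongest summit. The window from 30064351 was the only one of the 187 listed in 5 libraries: Pol II at 22.1 after Cbx3 siRNA, at 14.9 after control siRNA and at 10.6 in untreated cells, Med26 after control siRNA, and Cbx3 set 1 at 68.8.

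**Figure D3:**
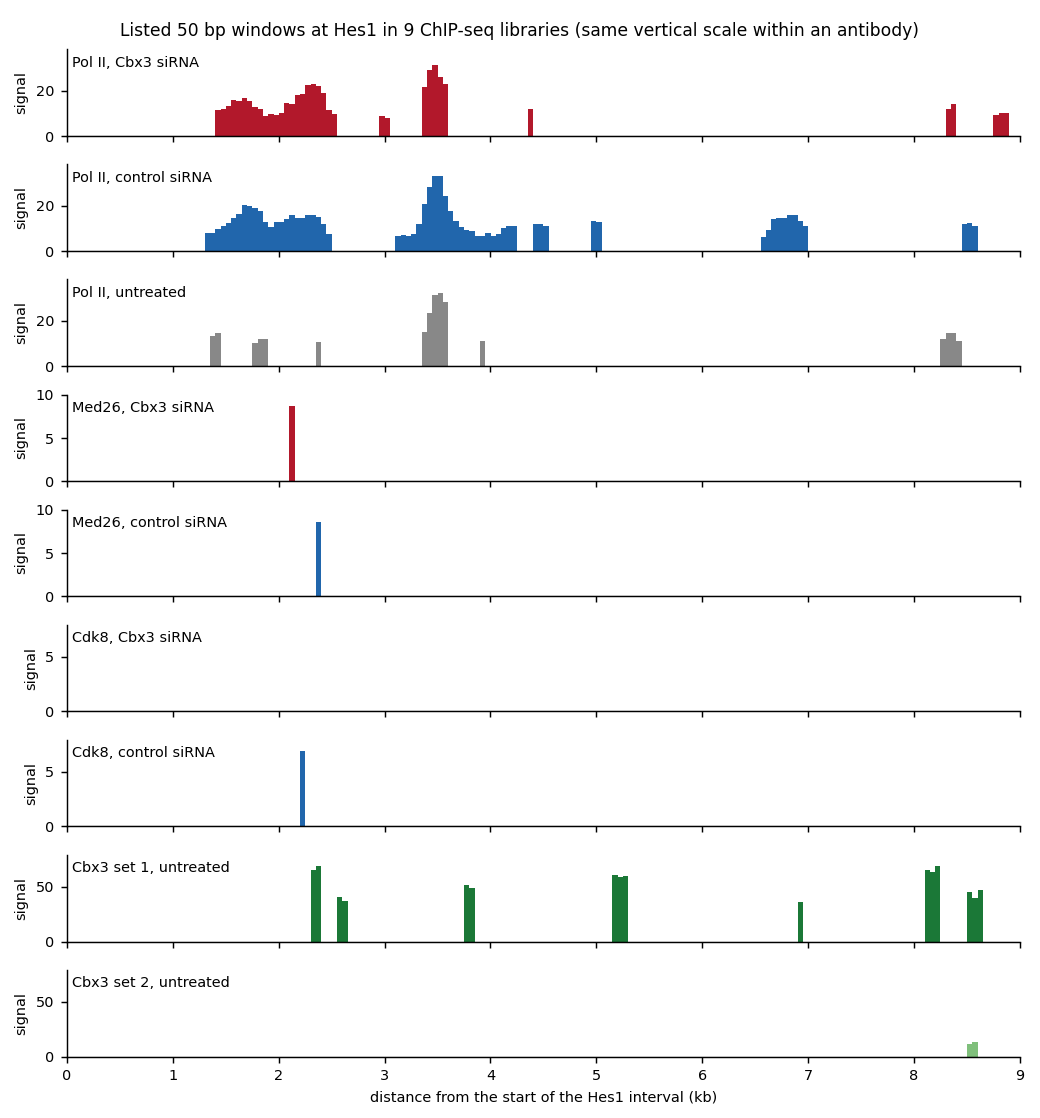
Signal of listed 50 bp windows across the 9 kb Hes1 interval (horizontal axis, kb from its start) in the 9 libraries, with the same vertical scale within an antibody; untreated Pol II and each Cbx3 set have their own value step. The Pol II summit near 3.5 kb was listed in all 3 Pol II libraries, the stretch near 6.8 kb after control siRNA only.

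Sox2 had a Pol II stretch from 34548701 to 34549400 with 14 windows after Cbx3 siRNA and from 34548801 to 34549550 with 15 after control siRNA. Its highest window, from 34548951 to 34549000 in both arms, held 26.2 after Cbx3 siRNA and 33.6 after control siRNA. The 4 windows from 34548851 to 34549050, around that summit, were lower after Cbx3 siRNA with a median log2 difference of -0.45, and the 6 windows to their right, up to 34549350, were higher with a median of 0.16. Of the 1407 shared stretches of at least 12 windows, 80.2% had as wide a range of differences as Sox2. In untreated cells only 2 windows were listed, with signals of 13.1 and 10.3. Away from the summit the arms listed different windows: 5 windows from 34547651 to 34547900, with 9.55 to 10.6, were listed after Cbx3 siRNA only, as were 5.51% of the stretches of at least 5 windows of that library. A stretch with 5 consecutive windows from 34552051 to 34552300, at 11.7 to 17.3, was listed after control siRNA only, and the nearest windows after Cbx3 siRNA were 2 from 34552401 with 8.998 and 8.80. Med26 was listed at Sox2 in neither arm. Cdk8 had no window after Cbx3 siRNA and 1 after control siRNA, with 6.29.

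Nes, which encodes nestin, had a single narrow Pol II stretch. It ran from 87774901 to 87775100 after Cbx3 siRNA, with signals of 14.2, 19.98, 18.7 and 15.9, and from 87774901 to 87775200 after control siRNA, with 9.04, 11.9, 16.6, 19.6, 19.95 and 16.3. The highest window had almost the same signal in both arms and lay 150 bp further left after Cbx3 siRNA. The higher median at Nes thus came with a displaced summit of equal height. Med26 had 1 window after Cbx3 siRNA, from 87775451 with 6.79, and none after control siRNA, and Cdk8 had none in either arm.

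Pax6 was the weakest of the 5 genes for Pol II. After Cbx3 siRNA 2 windows from 105515401 to 105515500 held 9.39 and 8.34. After control siRNA these windows held 15.0 and 12.4 within a stretch of 10 windows from 105515301 to 105515800. Of shared stretches of at least 2 windows, 14.4% had a median difference as low as at Pax6. The highest Pol II signal at Pax6 was exceeded or equalled in 77.0% of stretches after Cbx3 siRNA and in 58.2% after control siRNA. No Med26 or Cdk8 window was listed in the 36 kb in either arm. RefSeq gives Pax6 more than 1 start and overlapping genes Pax6os1 and Elp4, and to which of them the stretch belongs was not determined.

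**Figure D4:**
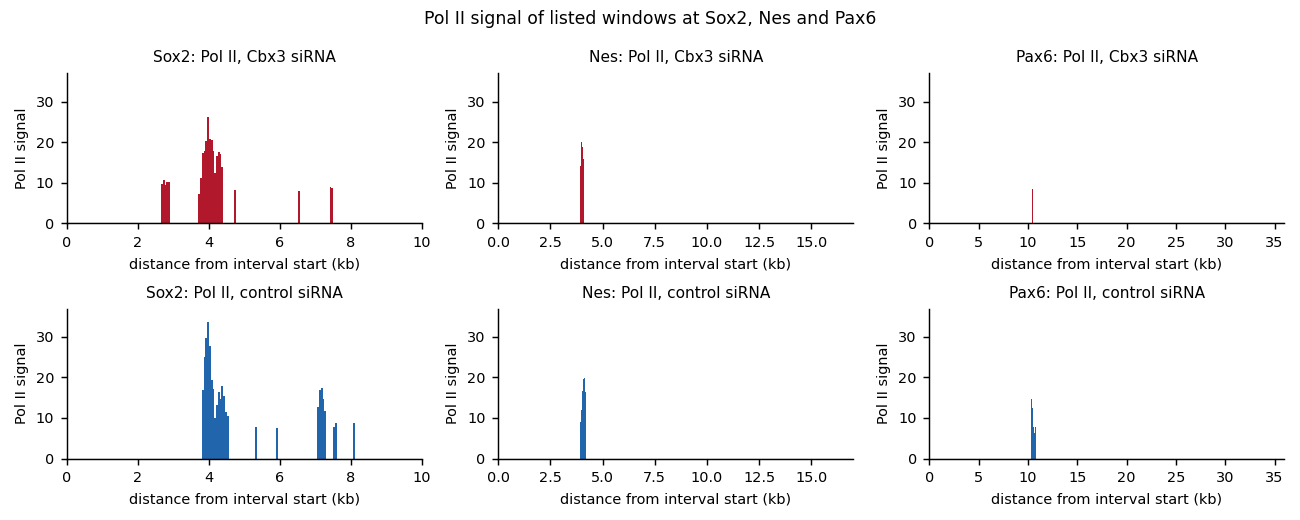
Pol II signal of listed windows (vertical axis) by distance from the start of the Sox2, Nes and Pax6 intervals in kb, after Cbx3 siRNA (upper row, red) and control siRNA (lower row, blue). The summit at Sox2 was 26.2 and 33.6, at Nes 19.98 and 19.95, and at Pax6 9.39 and 15.0.

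In the Hes5 interval Pol II, Med26 and Cdk8 were each listed in both siRNA arms, which was so in none of the other 4. Whether the stretch described here belongs to Hes5 or to its neighbour Pank4 was not determined. Pol II ran from 154338251 to 154338750 with 10 windows after Cbx3 siRNA and from 154338151 to 154338500 with 7 after control siRNA. The window from 154338251 was the highest in both arms, with 17.8 after Cbx3 siRNA and 27.7 after control siRNA. All 5 shared windows were lower after Cbx3 siRNA (genome 74.2%), with log2 differences of -0.76 to -0.33. Of shared stretches of at least 5 windows, 12.0% had a median difference as low as at Hes5. In untreated cells 4 windows held 16.1 to 17.5. The Pol II list was thus longer here after the knockdown, while the shared windows were lower. The control list stopped at a window of 14.5, and the signal of unlisted windows cannot be seen. As deposited, the untreated signal, on another step of values, was near that of the knockdown. Over the genome, however, control siRNA lay above untreated by a median log2 difference of 0.60. With that median subtracted, control siRNA over untreated was -0.07 at Hes5. Cbx3 siRNA over control siRNA, centred on its own genome median, was -0.35.

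Cdk8 was clearly listed in the Hes5 interval. It had 6 windows from 154338401 to 154338700 after Cbx3 siRNA and 4 windows from 154338451 to 154338650 after control siRNA. Its signals after Cbx3 siRNA were 15.6, 26.3, 32.5, 34.6, 29.0 and 17.6, and after control siRNA 19.8, 26.6, 29.7 and 29.2 in the 4 central windows. Only 3.17% of Cdk8 stretches after Cbx3 siRNA and 3.82% after control siRNA reached as high. All 4 control windows were listed again (genome 24.7%), and 1 of the 4 was lower after Cbx3 siRNA (genome 41.9%). The median log2 difference was 0.25, with a range from -0.01 to 0.41, against 0.10 for all Cdk8 windows listed in both arms. In windows listed in both arms, Cdk8 and Pol II at Hes5 thus differed in opposite directions, as did the genome's medians of 0.10 and -0.29. These Cdk8 and Pol II windows had only the window from 154338451 in common. From 154338501 to 154338700, under Cdk8, Pol II was listed after Cbx3 siRNA only, at 8.82 to 11.9. The difference between the antibodies was not tested. The highest Cdk8 window, from 154338551, lay 300 bp to the right of the highest Pol II window in both arms.

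Med26 at Hes5 had 1 window on the highest Pol II window, from 154338251 with 11.4, after Cbx3 siRNA, and 2 windows just to its right, from 154338301 with 13.2 and 12.1, after control siRNA. None of the 3 control Med26 windows of the 5 genes was listed again at the same position (genome 6.13%), though each had a Med26 window of the other arm within 200 bp (genome 17.1%). Of the Med26 windows of the 5 genes, 2 of 3 after Cbx3 siRNA and 3 of 3 after control siRNA were also Pol II windows of the same arm, against 54.2% and 76.8% of all. For Cdk8 these were 6 of 6 and 3 of 6, against 25.5% and 23.6%. The counts are too small to set the genes apart from the rest.

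Not all of these windows need belong to the gene whose name the interval bears. Pol II windows spanned 7700 bp in the Hes5 interval, 7600 bp at Hes1 and 5450 bp at Sox2. The gene lengths in GRCm38 are 1747, 2440 and 2467 bp, so the windows could not all lie within a gene of that length. At Hes5 the span starts at 1 window from 154331051 with a signal of 7.7, listed after Cbx3 siRNA only. Apart from it and 1 control window from 154335701, Pol II there lay from 154338151 to 154338750. In that annotation Pank4 is the next gene after Hes5, and Sox2 is overlapped by the long noncoding RNA gene Sox2ot. Whether the joint stretch of Pol II, Med26 and Cdk8 lies at Hes5 or at Pank4 was not determined.

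**Figure D5:**
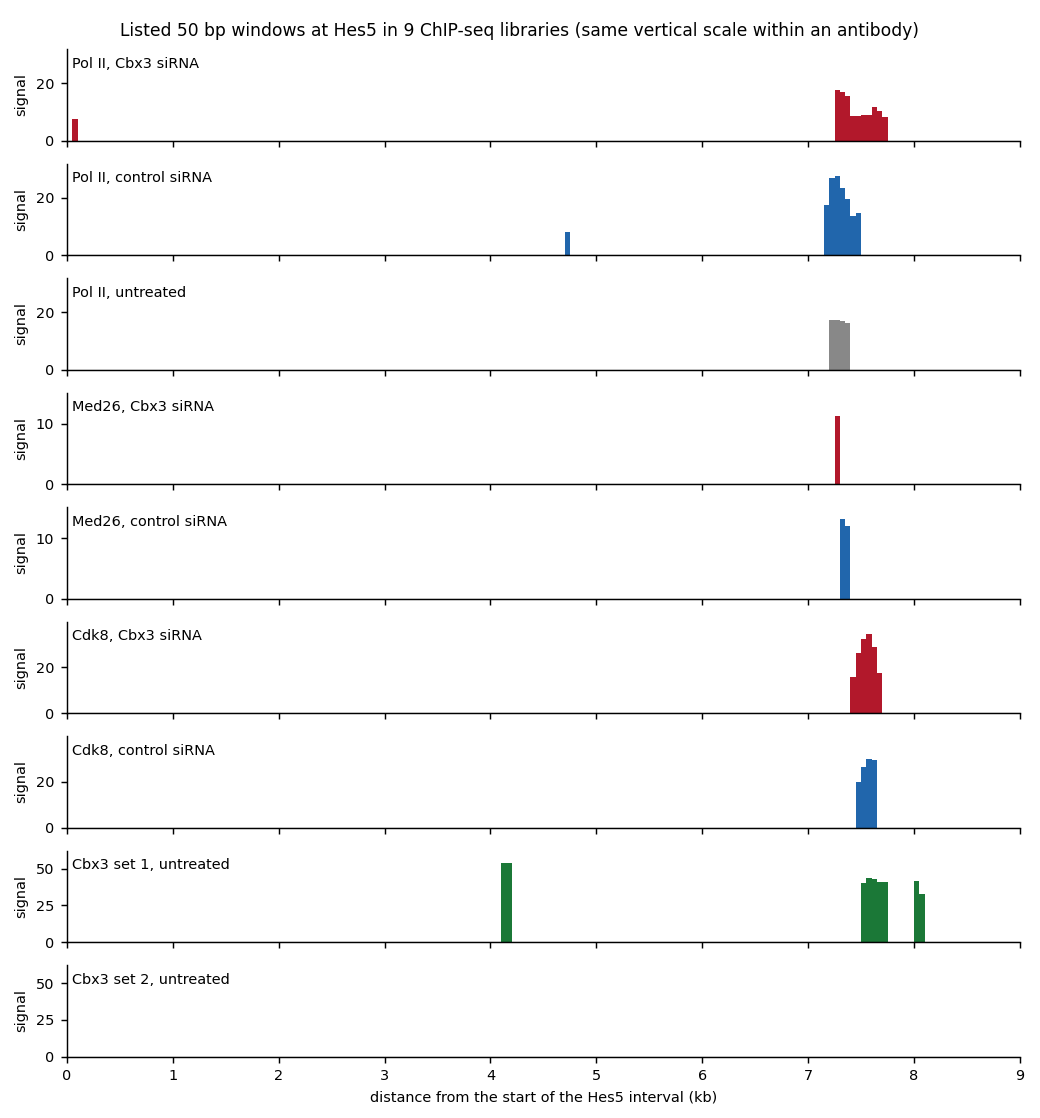
Signal of listed 50 bp windows across the 9 kb Hes5 interval (horizontal axis, kb from its start) in the 9 libraries, with the same vertical scale within an antibody; values of untreated libraries have another step. Between 7 and 8 kb Pol II had its highest window at 17.8 after Cbx3 siRNA and at 27.7 after control siRNA, and Cdk8 at 34.6 and 29.7.

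Cbx3 in untreated cells was listed at every one of the 5 genes in set 1, with 20 windows at Nes, 16 at Hes1, 11 each at Sox2 and Pax6 and 9 at Hes5. Set 1 listed 923942 windows in all, and of the tiles of the same length with any set 1 window, 5.73% held as many as Nes, 3.66% as many as Hes1, 9.97% as many as Sox2, 45.7% as many as Pax6 and 13.3% as many as Hes5. Set 2 listed 2 windows at Hes1, from 30070501 to 30070600 with 11.4 and 13.0, and none at the other genes. Both were also in set 1, against 13.1% of all set 2 windows, and of the 67 set 1 windows these 2 were also in set 2 (2.99%), against 3.47% genome-wide. The Cbx3 signal at Sox2, Nes, Pax6 and Hes5 therefore rests on 1 library, as does that at Hes1 outside these 2 windows. The longest and highest Cbx3 stretch of the 5 genes was at Nes from 87775101 to 87775600, with 10 windows of 55.2 to 72.3. In set 1, 0.961% of the 419145 stretches were as long and 0.648% as high. It began where the Pol II stretch of Nes ended after Cbx3 siRNA and shared 2 windows with the control Pol II stretch. The single Med26 window of Nes lay inside it. At Hes1 the highest Cbx3 signal, 68.8, was reached in 2 windows listed in set 1 only. They start at 30064351, within the broad left Pol II stretch, and at 30070201. At Hes5 Cbx3 overlapped Cdk8: 4 of the 6 Cdk8 windows after Cbx3 siRNA and 3 of the 4 after control siRNA were also Cbx3 windows, with Cbx3 signals of 40.3 to 43.9. Over the genome 15% and 14.7% of Cdk8 windows in the knockdown and control arms were.

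A minority of the Pol II windows of these genes were also windows of Cbx3 set 1. Of the Pol II windows of the 5 genes, 13 of 76 after Cbx3 siRNA, 15 of 113 after control siRNA and 1 of 22 in untreated cells were also set 1 windows, against 17.2%, 17.2% and 20.7% of all. Counting these, 46, 58 and 12 lay on or within 200 bp of a set 1 window, against 50.4%, 51.2% and 57.1% of all. As shares, the windows on set 1 were 17.1%, 13.3% and 4.55%, furthest below the genome in the 22 untreated windows. Within 200 bp the shares were 60.5%, 51.3% and 54.5%, furthest from the genome after Cbx3 siRNA. At Pax6 no Pol II window had Cbx3 within 200 bp, while at Nes all 4 and all 6 in the knockdown and control arms did.

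Pol II without the knockdown was measured in control siRNA and in untreated cells. Of the 22 untreated Pol II windows of the 5 genes, 18 were also listed after control siRNA, against 94.2% of all untreated windows. The 4 others were all at Hes1, from 30070251 to 30070450. Those from 30070301 and 30070351 were listed after Cbx3 siRNA, with 11.8 and 14.2. In the 18 windows the median log2 difference, control siRNA over untreated, was 0.36, against 0.60 for all windows of both libraries, and 4 of the 18 were lower after control siRNA (genome 12%). It was 0.09 over 12 windows at Hes1, 0.54 over 4 at Hes5 and 0.76 over 2 at Sox2. The value step was 0.0220 in the control siRNA library and 0.0211 in the untreated one. With the median of all windows, 0.60, subtracted, the medians of Hes1, Hes5 and Sox2 become -0.51, -0.07 and 0.15. After the same centring the siRNA arms, which share the control siRNA library with this comparison, gave 0.31 at Hes1, -0.35 at Hes5 and 0.33 at Sox2.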

How the data were processed

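Of the 16 samples of the series, 9 are ChIP libraries with a file, and the 7 inputs were not used here. The deposited files hold 50 bp windows, each with the signal that the authors computed. Bowtie and mm9 are named in the submitters' processing notes, while how windows were selected, and what role inputs had in it, is not given in the sources used here. All signal values fell within 0.05 of a whole number of steps, the step being 0.0220 in both siRNA Pol II libraries, 0.0192 in both Med26 and 0.0282 in both Cdk8 libraries. It was 0.0211 in untreated Pol II and 0.0797 and 0.0436 in Cbx3 sets 1 and 2, so levels were compared within the siRNA pairs as deposited. Total reads are unknown from such lists, and no counting interval is given. If 50 steps are 1 read, the lowest listed windows held 4.26 reads for Cdk8, 5.46 for siRNA Pol II and 6.24 for Med26.

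Windows touching an interval by at least 1 bp were taken, and stretches joined windows with gaps of up to 200 bp. Log2 differences were computed for windows listed in both libraries, with no pseudocount, and medians and counts over the intervals were set beside those over all windows. Tiles of an interval's length were counted from each chromosome's start, keeping those with at least 1 window. Unlike the intervals, they were not placed on genes. The planned rule named all 5 genes, the highest window of each library and stretches of 10 or more windows; the shorter stretches and the runs of windows described were chosen after their values were seen, as were the background counts for stretches. The 5 genes and the comparisons were chosen with earlier results of these data known. Other Notch and neural progenitor genes and markers of pluripotent cells were to be placed by an mm9 annotation and are not analysed here. Gene lengths and neighbours are from RefSeq on GRCm38.p6. Joining, matching and medians were tested on simulated data. The software was pandas 2.3.3 with numpy 2.4.6 under Python 3.11.15; figures were drawn in matplotlib 3.10.9.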

Additional observations from a re-analysis of the deposited data

How the results depend on the processing

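Leaving out Hes1 was chosen after seeing the data. Why values moved was not tested. Over the 5 genes, 44.2% of control Pol II windows were listed again. The share was 57.1% (16 of 28) in windows above the median control signal and 55.8% (48 of 86) with equal numbers of windows. No genome share was computed under these settings. Within 200 bp it was 79.6% (genome 89.8%). The median Pol II log2 difference of -0.09 became 0.20 when centred on all windows, -0.36 with the highest window of each gene, 0.02 with intervals widened by 5000 bp, -0.33 with unlisted windows set to the lowest signal and -0.33 without Hes1. By gene, setting unlisted windows to the lowest signal gave -0.33 at Hes1, -0.14 at Sox2 and -0.07 at Nes, a setting that by construction lowers the median where more windows were listed after control siRNA alone. The highest window gave -0.08 at Hes1 and -0.36 at Sox2. Pax6 and Hes5 stayed negative in every setting tried. Above the median control signal, 26 Pol II windows after Cbx3 siRNA and 28 after control siRNA were listed, and 1 Med26 window after Cbx3 siRNA. The Med26 share was 100% within 200 bp, from 3 of 3 windows (genome 17.1%). The Cdk8 share was 100% above the median signal, from 4 of 4 windows, all at Hes5, with no genome share computed. The Cdk8 difference of 0.25 at Hes5 ranged from 0.15 to 0.35 over its alternatives. Cbx3 windows over the 5 genes were 2 to 67 with either set alone and 0 with each set above its median. Control siRNA over untreated Pol II, centred, was -0.24. No paired analysis was possible because no antibody had more than 1 library in either siRNA arm. Depth is unknown from these lists, so what it limits cannot be given.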
